A study of Mus musculus with 5 samples.

Results

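The forkhead (Fox) genes encode transcription factors that share a winged-helix DNA-binding domain. They were followed here in the rostral medial ganglionic eminence (MGE), the ventral forebrain zone that gives rise to many cortical interneurons. Members were taken by name: every gene whose probe sets carried 1 symbol beginning with Fox, a letter from a to s and a digit, leaving out Foxp1, Foxp2 and Foxm1. This gave 35 genes of the 18193 with a named probe set. All but 1 carry the name of a forkhead factor; the exception, Foxl2os, is a non-coding transcript beside Foxl2 that the naming pattern also took in.

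The RNA came from E15.5 mouse embryos and was measured on 5 Affymetrix mouse arrays in 4 groups. Dlx1/2 mutant tissue (2 arrays) and WT tissue (1 array) were the dissected ventricular and subventricular zones. Dlx1/2 mutant cultures (1 array) and WT cultures (1 array) were primary neurons grown from the same zones. The mutants lack function of the homeodomain factors Dlx1 and Dlx2 together, and the labels give neither the alleles nor whether embryos were pooled. The WT tissue array is called WT in its description, while its title carries only an incomplete genotype mark. No label states that the pair of mutant tissue arrays came from different embryos, so the p-values reflect array-to-array spread that could be technical.

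As background, forkhead factors bind DNA as monomers at sites with a TAAACA-type core, and the subfamilies, lettered a to s, differ in where they act. Foxo factors are held in the cytoplasm when insulin and growth factor signals activate the kinase Akt, and they drive genes of cell cycle arrest, stress resistance and catabolism when in the nucleus. Foxj1 switches on the genes of motile cilia in ependymal and other multiciliated cells. Foxc1, Foxf2 and Foxq1 are known from mesenchyme, pericytes, meninges and brain vessels, and Foxa and Foxb genes from the floor plate and the diencephalon.

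The targeted genes followed the labels. The deposited signal of Dlx1 was 2.80 and 0.921 in mutant tissue against 3278 in WT tissue, and 1.26 in mutant culture against 603 in WT culture. Of 8 MGE markers 7 had a named probe set, and all 7 had a mean above the pooled median. In mutant tissue 3 fell, Lhx8 (−3.24), Gad2 (−0.63) and Lhx6 (−0.54), and 2 rose, the progenitor factors Gsx2 (0.69) and Olig2 (0.37). Their summed signal was 3178 and 3251 in mutant tissue against 4948 in WT tissue, a gap to which Lhx8 contributed most, and 1800 in mutant culture against 3042 in WT culture. In culture Nkx2-1, the factor that specifies the MGE, lay below the pooled median (3.63 in mutant and 4.09 in WT culture), while Lhx6, its target in interneurons, lay at 8.58 and 9.81. The X-inactivation transcript Xist also differed with genotype, at 6.70 and 7.09 in mutant tissue against 9.32 in WT tissue and 6.64 in mutant culture against 8.35 in WT culture (log2). The labels give no sex for the embryos, and its part in the results was not tested. Of the marker lists for other cells, 0 of 4 endothelial, 0 of 5 mural and meningeal, and 0 of 4 microglial genes tested passed for genotype in tissue. Among choroid plexus markers 1 of 4 tested passed, Otx2, and among pallial markers 1 of 2, Neurod2, both higher in mutant tissue. The summed signal of the 6 pallial markers was 250 and 246 in mutant tissue against 114 in WT tissue. The list did not move as a whole: Neurod1, Neurod2, Neurod6 and Eomes were higher in mutant tissue, and Tbr1 and Emx1 lower. Tbr1 read 3.27 and 2.36 in mutant tissue against 4.77 in WT tissue, and Emx1 2.62 and 2.36 against 4.94.

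Of the 35 members, 15 had a mean log2 signal above 4.80, the median of all values on all arrays (a signal of 27.8). Those 15 were tested together with all 11063 genes above that median, and the other 20 were not. The 15 were the Foxo genes Foxo1, Foxo3 and Foxo4, the Foxj genes Foxj1, Foxj2 and Foxj3, the Foxk genes Foxk1 and Foxk2, the Foxn genes Foxn2 and Foxn3, and Foxc1, Foxd2, Foxl2, Foxp4 and Foxq1. At the edge of this filter lay Foxq1 just inside, with a mean of 5.09, and Foxb1 just outside, with 4.69. In 11 of the 15 the signal exceeded the pooled median on all 5 arrays. Foxd2 dipped to 4.79 in mutant culture, Foxp4 to 4.78 in WT culture, Foxj1 to 4.54 in WT tissue, and Foxq1 to 3.83 and 4.20 in the mutant and WT cultures. All levels below are log2 of quantile normalized signal, and since probe sets differ in their response to RNA, levels are compared between arrays and not between genes. In bulk RNA, fewer cells expressing a gene and less RNA per cell cannot be told apart.

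**Figure D1:**
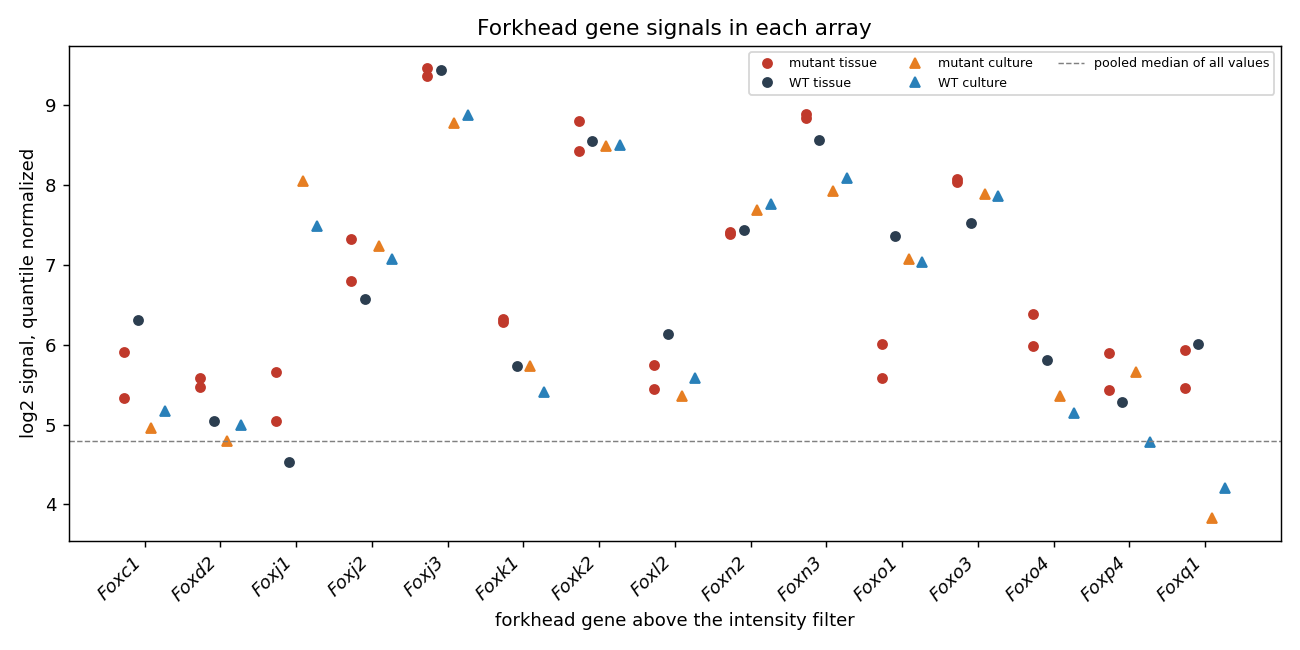
Log2 signal (vertical axis) of the 15 forkhead genes above the intensity filter in each of the 5 arrays, by genotype (colour) and preparation (circles, tissue; triangles, culture), with 1 point per array and no error bars. Foxj1 is above 7.4 in both cultures and at or below 5.7 in the 3 tissue arrays, and Foxo1 is lowest in the mutant tissue pair.

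The clearest genotype differences lay within the Foxo genes, in tissue, where Foxo1 was lower and Foxo3 higher in mutants. Foxo1, a target of insulin signalling that restrains cell cycle entry, read 6.01 and 5.58 in mutant tissue against 7.36 in WT tissue. It read 7.08 in mutant culture against 7.04 in WT culture. Both mutant tissue arrays thus lay below the other 3 arrays, which were within 0.32 of each other. In tissue Foxo1 fell by 1.56 ± 0.27 (SE of the limma fit, 2.95-fold, adjusted p = 0.0023), several times the gap of 0.43 between the mutant arrays. Foxo3, a factor of neural stem cell quiescence and of survival, read 8.07 and 8.03 in mutant tissue against 7.52 in WT tissue, and 7.89 in mutant culture against 7.87 in WT culture. The mutant tissue pair lay above the other arrays, and the gap between the pair was 0.04. In tissue Foxo3 rose by 0.53 ± 0.15 (1.44-fold, limma adjusted p = 0.036). Foxo4, the X-linked member, read 5.99 and 6.39 in mutant tissue against 5.81 in WT tissue, a difference of 0.37 ± 0.30 that did not pass (adjusted p = 0.44).

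Among the 15 members tested, 1 was therefore higher and 1 lower in mutant tissue, where 8.59% of all genes tested were higher and 6.7% lower. A count of 1 in each direction is close to what those shares give for 15 genes. The calls of Foxo1 and Foxo3 were lost when dim genes were tested too (adjusted p = 0.29 and 0.17), when the prior variance took no trend with intensity (0.12 and 0.16), and when all probe sets of a gene were averaged (0.28 and 0.31). With the last choice the Foxo1 difference shrank to −0.62.

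**Figure D2:**
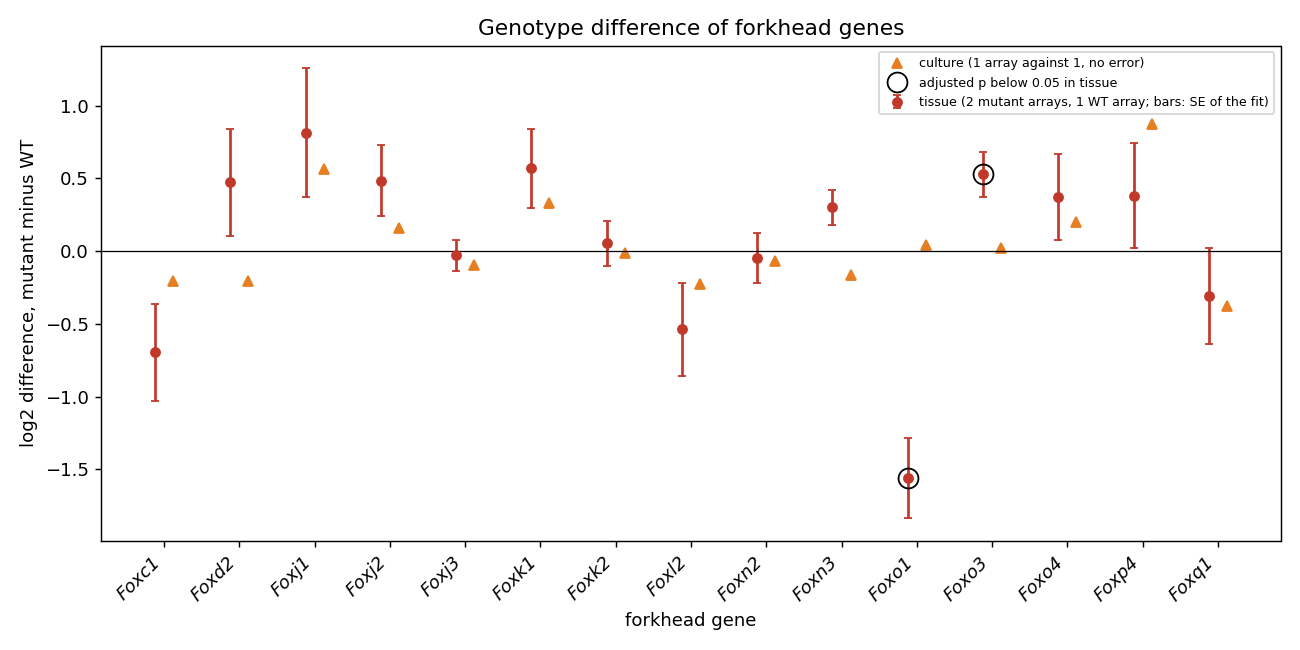
Log2 difference, mutant minus WT, of the 15 forkhead genes in tissue (circles with SE of the limma fit, 2 mutant arrays and 1 WT array) and in culture (triangles, 1 array against 1 with no error). Circled points passed an adjusted p of 0.05 in tissue: Foxo1 at −1.56 and Foxo3 at 0.53, while both genes lie near 0 in culture.

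The probe sets of these 2 genes did not carry equal weight. Foxo1 has 4 probe sets here, of which 3 were above the pooled median. All 3 were lower on average in mutant tissue, by 1.56 for the brightest, by 0.69 for the second and by 0.24 for the third. In the third, the dimmest of these, the groups overlapped, with 5.33 and 6.10 in mutant tissue against 5.96 in WT tissue. The size of the Foxo1 fall therefore depends on the probe set. The 2 probe sets of Foxo3 above the pooled median gave close values, 0.53 for the brighter and 0.55 for the other.

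**Figure D3:**
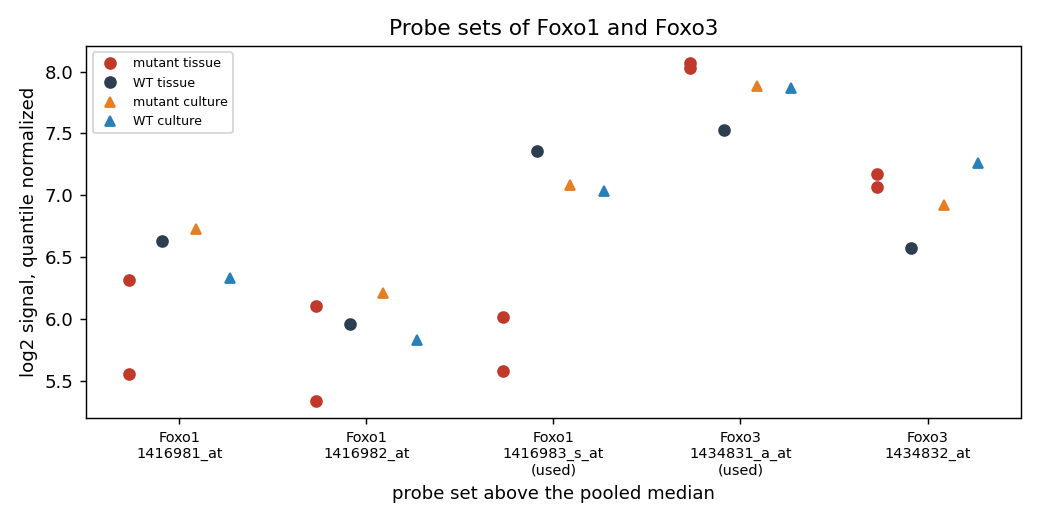
Log2 signal in each array of the 3 Foxo1 and 2 Foxo3 probe sets above the pooled median (1 point per array; circles, tissue; triangles, culture). The mutant tissue points lie below WT tissue in both arrays for 2 of the 3 Foxo1 probe sets and above it for both Foxo3 probe sets.

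In culture the brightest probe sets of Foxo1 and Foxo3 were nearly level between the genotypes. The culture differences, from 1 array against 1 and with no test, were 0.04 for Foxo1, 0.02 for Foxo3 and 0.20 for Foxo4. The other probe sets above the pooled median differed more, by 0.39 and 0.38 for Foxo1 and by −0.34 for Foxo3. The culture effect minus the tissue effect was 1.60 ± 0.39 for Foxo1, just short of the threshold (limma adjusted p = 0.052), and −0.51 ± 0.23 for Foxo3 (adjusted p = 0.26). Of the 15 members, 0 passed for this interaction in either direction, with 1 higher and 1 lower at an unadjusted p under 0.05, against 2.21% higher and 2.27% lower among all genes tested. For Foxo1 the adjusted p was 0.034 with the deposited scaling and 0.043 without a floor on dim values, and 0.26 to 0.40 under the other 3 alternatives that allow a test.

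Because Dlx1 and Dlx2 are homeodomain factors that bind TAATT cores, and the 2 Foxo genes differed in opposite directions, their promoters are shown. The sequences are the 250 bases before the RefSeq start (GRCm38.p6), 5′ to 3′ on the gene's strand, chr3:52268087-52268336 (+) for Foxo1 and chr10:42276696-42276945 (−) for Foxo3, with matches to TAATT on either strand in capitals.
Foxo1: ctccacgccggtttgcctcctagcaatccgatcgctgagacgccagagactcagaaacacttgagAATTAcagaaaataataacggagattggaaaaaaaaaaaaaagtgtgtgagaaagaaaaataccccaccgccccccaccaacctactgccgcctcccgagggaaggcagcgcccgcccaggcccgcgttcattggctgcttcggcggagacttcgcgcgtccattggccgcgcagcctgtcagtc
Foxo3: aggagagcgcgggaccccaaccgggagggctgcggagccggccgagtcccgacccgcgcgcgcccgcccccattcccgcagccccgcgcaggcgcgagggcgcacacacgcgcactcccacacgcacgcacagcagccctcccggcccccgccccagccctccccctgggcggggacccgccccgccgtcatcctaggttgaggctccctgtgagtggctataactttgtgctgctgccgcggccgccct
Foxo1 held 1 match, on the opposite strand, its first base at position −185 from the start, and Foxo3 held 0. Neither window held TAAACA, the forkhead core. TAATT was present on either strand in 25.0% of the 32851 promoter windows of this length and TAAACA in 12.0%, the motifs being 5 and 6 letters long and free to overlap. Of the 27 windows of the 24 members that the table holds, 6 had TAATT and 2 had TAAACA. The windows also differed in base composition, with 56.0% G and C in Foxo1 and 76.4% in Foxo3, against a median of 52.4%. A match is a string of letters and not a shown binding site.

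Genes around the Foxo factors were read from a pair of lists. Of 15 receptors, kinases and adaptors upstream of Foxo, 13 were tested, and 2 rose and 0 fell in mutant tissue. These were the PI3-kinase subunit genes Pik3r1, the regulatory subunit p85 alpha (1.13 ± 0.15, limma adjusted p = 0.00035), and Pik3ca, the catalytic subunit p110 alpha (0.75 ± 0.14, adjusted p = 0.0039). Pik3r1 read 8.35 and 8.30 in mutant tissue against 7.20 in WT tissue, with no overlap. For Pik3ca the culture effect minus the tissue effect passed too, in the other direction (−1.21 ± 0.23, adjusted p = 0.021), with 7.58 in mutant culture against 8.04 in WT culture. For Sgk1, a kinase of the list, the culture effect minus the tissue effect was −1.38 ± 0.24, with 7.68 in mutant culture against 9.38 in WT culture. The median of the list in tissue was 0.14, beside 0.001 over all genes tested. Of 14 known Foxo targets, all tested, 5 rose, 2 fell and 7 did not pass in mutant tissue, with a median of 0.17. Over all genes tested 8.59% rose and 6.7% fell, shares against which both lists' counts are to be read.

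The targets that rose were Rictor, a subunit of the kinase complex mTORC2 (0.84 ± 0.18, limma adjusted p = 0.0082), Fbxo32, the ubiquitin ligase atrogin-1 (0.95 ± 0.24, adjusted p = 0.020), the stress-induced sestrin genes Sesn1 (0.60) and Sesn3 (0.51), and Txnip, an inhibitor of thioredoxin (0.48). Those that fell were Bcl2l11, the pro-apoptotic protein Bim (−0.61 ± 0.17, adjusted p = 0.030), and Ccng2, a cyclin of growth arrest (−0.34 ± 0.07, adjusted p = 0.0095). Cdkn1b, the cell cycle inhibitor p27, differed by 0.16 (adjusted p = 0.38). Fbxo32 was at the floor in mutant culture against 4.52 in WT culture, both below the pooled median. At such signals 1 array against 1 gives no firm direction. Its culture effect minus its tissue effect was −3.10 ± 0.58, a size that rests on a value at the floor. Both lists were chosen with earlier results of these data known.

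The other 12 members above the filter did not pass for genotype in tissue. Over all 15 members, both mutant tissue arrays lay above WT tissue in 8 and below it in 5, where 40.8% and 40.2% of all genes tested did. In 6 of these 12 both mutant tissue arrays lay above WT tissue: Foxd2, Foxj1, Foxj2, Foxk1, Foxn3 and Foxp4. The nearest to the threshold was Foxn3, a repressor tied to the cell cycle checkpoint, at 8.89 and 8.83 in mutant tissue against 8.56 in WT tissue, a difference of 0.30 ± 0.12 (limma adjusted p = 0.12). Foxk1, a repressor of autophagy genes, read 6.29 and 6.33 in mutant tissue against 5.74 in WT tissue (0.57 ± 0.27, adjusted p = 0.19). Foxj2 differed by 0.49 (adjusted p = 0.21), and Foxd2 by 0.47 (adjusted p = 0.43). In 4 others, Foxc1, Foxl2, Foxn2 and Foxq1, both mutant arrays lay below WT tissue. Foxc1, a factor of meningeal and vascular mural cells, read 5.33 and 5.91 in mutant tissue against 6.31 in WT tissue (−0.69 ± 0.33, adjusted p = 0.19). Foxl2, known from the ovary and the eyelid, read 5.75 and 5.45 in mutant tissue against 6.14 in WT tissue (−0.54 ± 0.32, adjusted p = 0.29).

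By their brightest probe sets, Foxk2, Foxj3 and Foxn2 had the smallest tissue differences of the 15. Foxk2, a partner of Foxk1, read 8.42 and 8.80 in mutant tissue against 8.56 in WT tissue, so that WT tissue lay between the mutant arrays. Foxj3 read 9.46 and 9.36 in mutant tissue against 9.44 in WT tissue. Their differences were 0.05 ± 0.16 and −0.03 ± 0.11, and that of Foxn2 was −0.05 ± 0.17. The small negative values of Foxj3 and Foxn2 turned positive with the deposited scaling. The 5 probe sets of Foxk2 above the pooled median spread from −0.98 to 0.16 in tissue, 3 of them below 0. The second probe set of Foxj3 above the pooled median read 6.27 and 6.40 in mutant tissue against 5.66 in WT tissue, a difference of 0.67, so the probe sets of Foxj3 differ in tissue.

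Across both preparations, in a model with preparation and genotype, 0 of the 15 members passed in either direction, where 0.814% of all genes tested were higher and 0.253% lower in mutants. By the same limma fit, 1 member was higher (Foxj1) and 1 lower (Foxo1) at an unadjusted p under 0.05. Foxj1 differed by 0.71 ± 0.26 (adjusted p = 0.31) and Foxo1 by −0.87 ± 0.35 (adjusted p = 0.34). The median over the 15 members was 0.10 across both preparations and 0.30 in tissue, beside −0.001 and 0.001 over all genes tested. In culture 0 of the 15 members differed by 2-fold or more with genotype, where 1.85% of all genes tested were at least 2-fold higher and 1.83% at least 2-fold lower. The member farthest apart in culture was Foxp4, expressed in developing forebrain and a partner of Foxp1 and Foxp2, at 5.66 in mutant culture against 4.78 in WT culture, a difference of 0.88. A second probe set of Foxp4 differed by −0.26, so that the gene's direction in culture is uncertain.

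Among the 15 members tested, culture against tissue gave the widest differences. Foxj1, the master regulator of motile cilia, read 8.05 and 7.49 in mutant and WT culture against 5.04, 5.66 and 4.54 in the mutant tissue pair and WT tissue. Both cultures lay far above every tissue array. Foxj1 rose in culture by 2.81 ± 0.26 (7.0-fold, limma adjusted p = 0.00017). The rise was 2.70 within mutants and 2.95 within WT, and the interaction was −0.25 ± 0.49 (adjusted p = 0.82). Foxj1 has 1 named probe set here, and it was the 1 member of the family that rose in culture, where 19.6% of all genes tested rose.

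**Figure D4:**
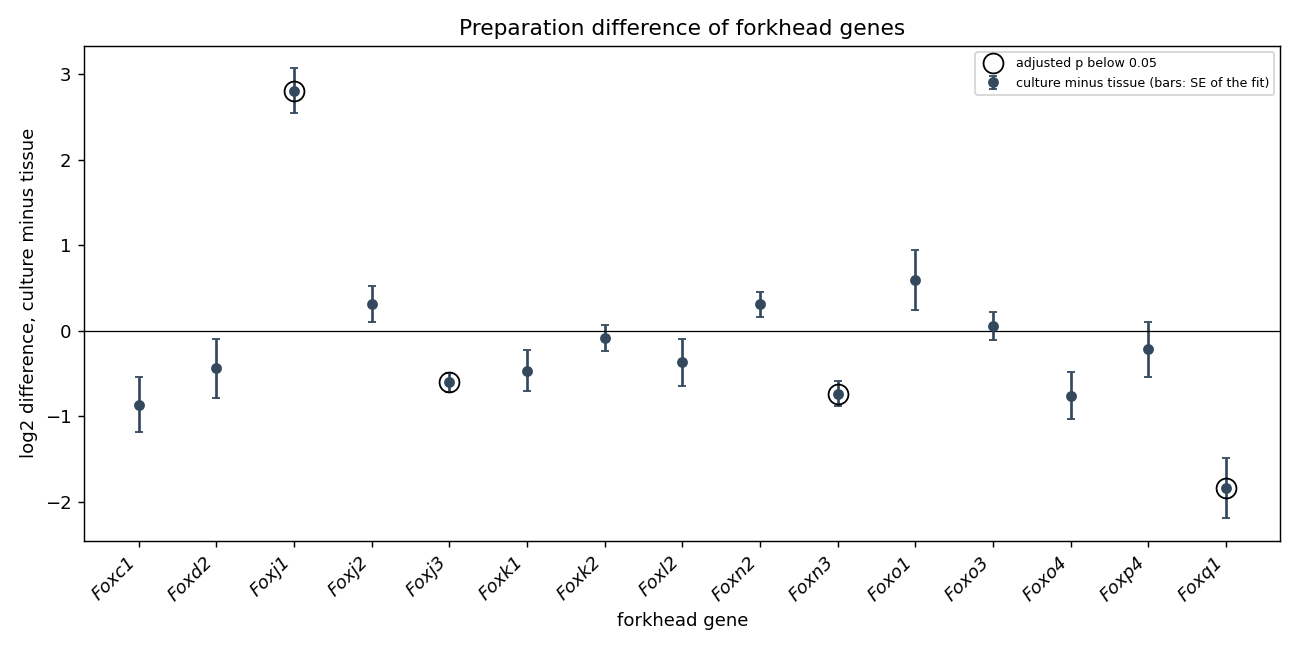
Log2 difference, culture minus tissue, of the 15 forkhead genes, from the limma model with preparation and genotype over 5 arrays (bars, SE of the fit). Circled genes passed an adjusted p of 0.05: Foxj1 at 2.81 above 0, and Foxj3 at −0.60, Foxn3 at −0.74 and Foxq1 at −1.84 below it.

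Genes of motile cilia, structural genes and regulators alike, were listed beside Foxj1. Of 25 listed genes 21 had a named probe set, and 4 of those were bright enough to test, of which 1 rose, 2 fell and 1 did not pass. Cfap126, a protein of the motile ciliary axoneme, rose by 1.18 ± 0.28 (limma adjusted p = 0.013), at 6.59 and 5.95 in mutant and WT culture against 5.63, 5.19 and 4.78 in mutant and WT tissue. Rfx3, a factor that acts with Foxj1 in ciliogenesis, fell by 0.50 ± 0.11 (adjusted p = 0.0092). Myb, a factor of early multiciliated cells and of proliferating progenitors, fell by 1.41 ± 0.23 (adjusted p = 0.0022). Tekt1, a protein of ciliary microtubules, differed by −0.11 (adjusted p = 0.80). Both tested genes that fell are regulators, but this split did not extend to the dim genes of the list. There the structural genes Tekt2 and Dnaic1 lay below every tissue array in both cultures, and the regulator Rfx2 above. Over all 21 genes, dim ones included, both cultures lay above every tissue array in 8, below every tissue array in 4, and overlapped with tissue in 9. Among all genes tested, which are brighter, 29.6% lay above and 29.2% below in this way. The summed signal of the list, in which Rfx3 is the brightest gene, was 1115 in mutant culture and 912 in WT culture, against 1249 and 1169 in mutant tissue and 1081 in WT tissue.

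Markers of choroid plexus, another epithelium with cilia, moved partly with Foxj1. Of 4 tested 2 rose in culture, where 19.6% of all genes tested rose. They were Sostdc1, a secreted inhibitor of BMP and Wnt signals (2.18 ± 0.26, limma adjusted p = 0.00051), and the folate receptor gene Folr1 (1.77 ± 0.44, adjusted p = 0.014). Folr1 read 6.42 and 5.99 in mutant and WT culture against 3.72, 4.66 and 4.83 in mutant and WT tissue. It passed the intensity filter mainly through the cultures, so its call is no independent evidence of a difference. Otx2 and Clic6 did not pass. Ttr, the most abundant transcript of choroid plexus, was at the floor of 2.36 in mutant culture and in both mutant tissue arrays, at 3.66 in WT culture and at 3.97 in WT tissue, below the pooled median in all of them. Kl, also below the pooled median in all arrays, was at the floor in both cultures against 3.29, 3.86 and 2.99 in mutant and WT tissue. The summed signal of the list of 6 was 632 and 443 in mutant and WT culture, against 472, 450 and 268 in mutant and WT tissue. Otx2, the brightest of the list in every array, weighed most in these sums. The part of such cells in the Foxj1 rise was not tested.

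**Figure D5:**
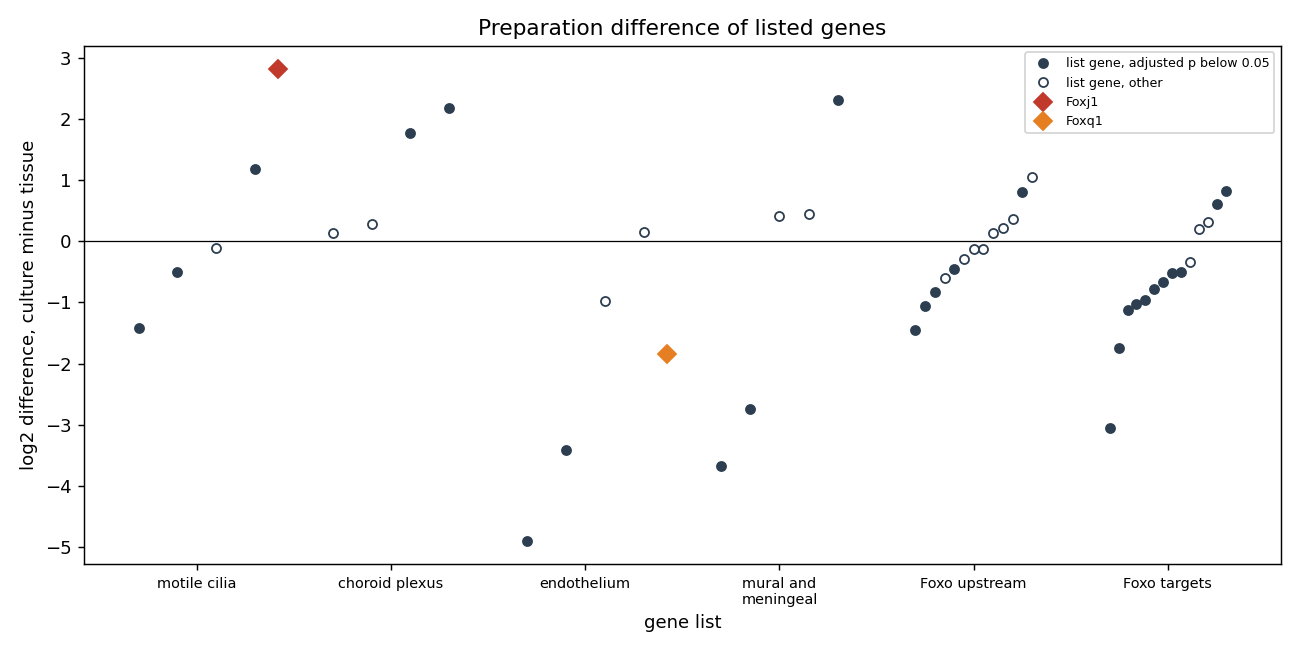
Log2 difference, culture minus tissue (vertical axis), of the tested genes of 6 lists, each point 1 gene (filled, adjusted p below 0.05; open, other), with Foxj1 beside the cilia list and Foxq1 beside the endothelial list as diamonds. Foxj1 lies above every tested cilia gene, and Foxq1 at −1.84 lies between the endothelial genes Esam at −3.40 and Flt1 at −0.97.

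Of the 15 members, 3 fell in culture, where 19.2% of all genes tested fell. They were Foxj3, Foxn3 and Foxq1. Together with the 1 that rose, the share of the family that passed was no larger than the background. Foxj3, a close relative of Foxj2 known from muscle and germ cells, read 8.78 and 8.87 in mutant and WT culture against 9.46, 9.36 and 9.44 in mutant and WT tissue, with no overlap. It fell by 0.60 ± 0.11 (1.52-fold, limma adjusted p = 0.0039). Its other probe set above the pooled median differed by −0.05, and with all probe sets averaged the call was lost (−0.05, adjusted p = 0.86).

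Foxn3 read 7.92 and 8.09 in mutant and WT culture against 8.89, 8.83 and 8.56 in mutant and WT tissue. It fell by 0.74 ± 0.15 (1.67-fold, limma adjusted p = 0.0058), and all 4 of its probe sets were lower in culture, by 0.04 to 0.70. The call was lost with dim genes tested too (adjusted p = 0.077) and with probe sets averaged (0.090). Foxn2, its nearest relative in the family, differed by 0.31 ± 0.15 in culture, with 7.69 and 7.76 in mutant and WT culture against 7.41, 7.38 and 7.44 in mutant and WT tissue (adjusted p = 0.13).

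Foxq1, known from brain endothelium and other epithelia, read 3.83 and 4.20 in mutant and WT culture against 5.94, 5.46 and 6.01 in mutant and WT tissue. Both cultures lay below the pooled median and all tissue arrays above it. Foxq1 fell by 1.84 ± 0.35 (3.59-fold, limma adjusted p = 0.0047), by 1.87 within mutants and by 1.81 within WT. It passed the intensity filter only through the tissue arrays, where it is high, so its call is no independent evidence of a difference. Its second probe set, dimmer on average than the filter, read the floor of 2.36 and 3.11 in mutant and WT culture against 5.28, 5.04 and 5.26 in mutant and WT tissue. The call was lost with dim genes tested too (adjusted p = 0.059).

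Some endothelial and pericyte markers were lower in culture, as Foxq1 was. Of 4 endothelial genes tested 2 fell: Cldn5, the tight junction protein of brain vessels (−4.89 ± 0.17, limma adjusted p = 2.7e-06), and Esam, an endothelial adhesion protein (−3.40 ± 0.33, adjusted p = 0.00020). Cldn5 read 4.29 and 4.23, and Esam 4.63 and 3.26, in mutant and WT culture, all below the pooled median. Like Foxq1, Cldn5 and Esam passed the filter only through the tissue arrays, so their calls are no independent evidence of a difference. Kdr and Flt1, receptors for VEGF, did not pass. The summed signal of the 8 endothelial markers was 237 and 162 in mutant and WT culture, against 926, 1031 and 1109 in mutant and WT tissue, and Pecam1 and Tie1 were at the floor in both cultures. Of 5 mural and meningeal genes tested 2 fell, the pericyte genes Kcnj8 (−3.68) and Rgs5 (−2.74), and 1 rose, the collagen gene Col1a2 (2.30). The other 2, Pdgfrb (0.44) and Col3a1 (0.42), did not pass. Pdgfrb read 7.48 and 7.34 in mutant and WT culture against 6.89, 6.88 and 7.10 in mutant and WT tissue. Cspg4, too dim to test, read 4.58 and 5.42 in mutant and WT culture against 2.36, 3.48 and 4.99 in mutant and WT tissue. Kcnj8 lay at 3.30 and 3.14 in mutant and WT culture, below the pooled median, so it too passed the filter only through tissue. Their list of 10 summed to 602 and 628 in mutant and WT culture, against 843, 904 and 1006 in mutant and WT tissue. Rgs5, the brightest of the list in tissue, weighed most in that fall. The median culture difference of the 5 tested was 0.42, so the list as a whole did not fall. The part of fewer vessel cells in the Foxq1 fall was not tested. Microglial genes summed to 294 and 404 in mutant and WT culture against 623, 650 and 564 in mutant and WT tissue, with 2 of 4 tested lower.

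Foxc1 and Foxf2 lie in a cluster with Foxq1. Foxc1 read 4.96 and 5.17 in mutant and WT culture against 5.33, 5.91 and 6.31 in mutant and WT tissue, a difference of −0.87 ± 0.32 (limma adjusted p = 0.063). Foxo4 stood close to the threshold too, at −0.76 ± 0.27 (adjusted p = 0.058), with 5.35 and 5.15 in mutant and WT culture against 5.99, 6.39 and 5.81 in mutant and WT tissue. Both passed with the deposited scaling kept (5 members lower in place of 3). Foxo4 also passed without an intensity trend (4 members lower). In all, 6 of the 15 members had both cultures below every tissue array and 2 had both above, where 29.2% and 29.6% of all genes tested did. The 6 were Foxc1, Foxd2, Foxj3, Foxn3, Foxo4 and Foxq1. The median culture difference of the 15 members was −0.37, beside 0.002 over all genes tested.

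Of the 14 known Foxo targets, 9 fell in culture, 2 rose and 3 did not pass, where 19.2% of all genes tested fell and 19.6% rose. Their median was −0.60. Foxo1 and Foxo3 did not pass (0.59 ± 0.35, limma adjusted p = 0.22, and 0.05 ± 0.16, adjusted p = 0.83). A link between the Foxo factors and the fall of the targets was not tested. Ccng2 fell by 1.74 ± 0.08 (limma adjusted p = 6.9e-06), Txnip by 1.03 ± 0.13 (adjusted p = 0.00080) and Cat, the peroxide-degrading enzyme catalase, by 0.96 ± 0.10 (adjusted p = 0.00027). Fbxo32, among the 9 that fell, was at the floor in mutant culture and at 4.52 in WT culture, against 6.80, 6.70 and 5.80 in mutant and WT tissue. Both cultures lay below the pooled median, so Fbxo32 passed the filter only through the tissue arrays. Its call is no independent evidence of a difference. Klf6, an immediate early zinc finger factor, rose by 0.82, and Sod2, the mitochondrial superoxide dismutase, by 0.60. Of 13 upstream genes 4 fell and 1 rose, beside the same shares. The receptor genes Insr and Igf1r were among those that fell, by 1.45 and 1.05, and Pik3cb, a catalytic PI3-kinase subunit, was the 1 that rose, by 0.81.

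The 20 members below the pooled median were Foxa1, Foxa2, Foxa3, Foxb1, Foxb2, Foxc2, Foxd1, Foxd3, Foxd4, Foxe3, Foxf1, Foxf2, Foxh1, Foxi1, Foxl1, Foxl2os, Foxn1, Foxn4, Foxp3 and Foxs1. Their mean levels ran from 2.36, the floor, to 4.69. Foxc2 and Foxl1, neighbours of Foxf1 that act in mesenchyme, were at the floor in all 5 arrays. In 8 of the 20 at least 1 array exceeded the pooled median. Foxb1, a factor of the mammillary body and diencephalon, came closest to the filter, at 5.08 and 5.22 in mutant tissue against 4.36 in WT tissue, and 4.90 in mutant culture against 3.91 in WT culture. All 3 mutant arrays of Foxb1 lay above both WT arrays and above the pooled median. Foxb1 was not tested for genotype, and both mutant tissue arrays lay above WT tissue in 40.8% of all genes tested. Foxs1, a pericyte gene, exceeded the median in 1 array, mutant tissue at 5.20, with 4.40 in the other against 3.51 in WT tissue, and 4.41 in mutant culture against 3.82 in WT culture.

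Among these dim genes 10 differed by 2-fold or more between the culture arrays, 3 higher and 7 lower in mutant culture. At such signals 1 array against 1 gives no firm direction, so levels are given and no folds. Foxf2, a pericyte and gut mesenchyme factor, read 4.65 in mutant culture against 3.45 in WT culture, and 4.93 and 5.36 in mutant tissue against 4.75 in WT tissue. Foxp3, the factor of regulatory T cells, read 4.69 in mutant culture against 3.27 in WT culture, and 3.84 and 4.47 in mutant tissue against 5.03 in WT tissue. Foxd4 read 4.53 in mutant culture against the floor in WT culture, and 2.36 and 3.60 in mutant tissue against 4.16 in WT tissue. Only Foxf2 of these 3 was higher in all mutant arrays of each preparation. All 3 were picked by their culture order, and both mutant tissue arrays lay above WT tissue in 40.8% of all genes tested.

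On the lower side, Foxd1, known from the kidney stroma and the ventral diencephalon, read 3.58 in mutant culture against 4.93 in WT culture, and 4.40 and 4.78 in mutant tissue against 5.04 in WT tissue. Foxh1, a partner of Smad proteins in nodal signalling, was at the floor in mutant culture against 4.30 in WT culture, and at 4.06 and 4.08 in mutant tissue against 4.83 in WT tissue. Foxf1, a factor of lung and gut mesenchyme, read 3.36 in mutant culture against 4.68 in WT culture, and 3.24 and 2.36 in mutant tissue against 5.38 in WT tissue. In these 3 genes every mutant array lay below the WT array of its preparation. Their culture order was fixed by how they were picked. In tissue, both mutant arrays lay below WT in 40.2% of all genes tested, so the shared order is little evidence. The second probe set of Foxf1 went the other way in culture, with 4.86 in mutant culture against the floor in WT culture.

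Foxb2 was at the floor in mutant culture against 4.80 in WT culture, and at 4.75 and the floor in mutant tissue against 4.91 in WT tissue. Foxn4, which directs interneuron and amacrine fates in the spinal cord and retina, was at the floor in mutant culture against 4.72 in WT culture, yet at 3.84 and 4.77 in mutant tissue against 2.92 in WT tissue. Foxi1, of the inner ear and kidney, read 2.87 in mutant culture against 4.60 in WT culture, and 2.36 and 3.11 in mutant tissue against 2.36 in WT tissue. For Foxn4 the order of the genotypes turned round between culture and tissue. Foxa1, a floor plate and midbrain dopamine factor, was at the floor in mutant culture against 4.34 in WT culture, with 2.36 and 2.36 in mutant tissue against 2.44 in WT tissue. Foxa2, its partner there, ran between 2.36 and 3.74 over all arrays and never reached the pooled median. The other members here stayed below it as well: Foxa3 peaked at 3.80, Foxd3 at 4.26, Foxe3 at 2.51, Foxn1 at 4.45 and Foxl2os at 3.44.

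Genes known to accompany Foxa and Foxb factors in the floor plate and hypothalamus were listed beside them. Of 15, 14 had a named probe set and 6 were tested. In mutant tissue 1 rose, Otp, a homeodomain factor of neuroendocrine neurons (4.46 ± 0.15, limma adjusted p = 6.6e-09), and 1 fell, the secreted signal Shh, at 6.02 and 4.90 in mutant tissue against 7.92 in WT tissue (−2.46 ± 0.38, adjusted p = 0.00097). Shh is a product of floor plate and of the MGE itself, and Foxa2 is its known partner in the floor plate. The list had a median of 0.16 in tissue and of 0.05 for culture against tissue, where 2 of the 6 rose and 1 fell. Over all genes tested 19.6% rose and 19.2% fell in culture. Shh rose by 3.39 ± 0.47, to 9.76 and 10.11 in mutant and WT culture, and Ntn1 by 0.93. Otp fell by 1.73, by 2.84 within mutants and by 0.24 within WT.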

How the data were processed

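What the authors deposited is linear signal intensity for 45101 Affymetrix probe sets on each of 5 arrays. The values show that each array had been scaled to a mean of 150 after trimming 2% at each end, and the software behind them was not given in the sources used here. Array medians ran from 26.2 to 29.8. From these values the arrays were quantile normalized, signals under the pooled 20th percentile (5.15) were set to it as a floor, and log2 was taken. Gene names came from GEO's platform annotation, leaving out 64 control probe sets and those with several symbols. Each gene was read from its brightest probe set by mean log2. All 35 members matched RefSeq by Entrez identifier, and they had 65 probe sets, with 18 members having more than 1.

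Linear models were fitted with limma (3.58.1; R 4.3.3), the prior variance following intensity, and p-values were adjusted by Benjamini-Hochberg over 11063 genes, with 0.05 as threshold. The tissue test used 3 arrays (1 residual and 10.9 prior degrees of freedom) and assumes that the WT array varies like the mutant pair. The genotype effect across both preparations and the culture effect came from a 5-array model (2 residual, 5.95 prior), and the interaction from a model of the 4 groups (1 residual, 8.57 prior). The culture arrays, 1 against 1, had no test. The code was tested on simulated data. Members above the filter are named with their levels, those called or at least 2-fold apart in culture by array, and dim members by range, with arrays above the pooled median given. The members and lists were chosen with earlier results of these data known. Alternatives were the deposited scaling, no floor, no filter, a prior without the trend, mean of probe sets, and leaving out each mutant tissue array. The number of arrays limits the precision.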

Additional observations from a re-analysis of the deposited data

How the results depend on the processing

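For the 6 calls of single forkhead genes, 41 alternative values could be had. All 41 kept their direction, 31 also stayed on their side of the threshold or, without a test, within the replicate spread, and 10 missed the threshold. The Foxj1 culture call held in all 7 of its alternatives (2.67 to 2.96, adjusted p from 0.00017 to 0.034). With the deposited scaling kept, 5 members in place of 3 were lower in culture, Foxc1 and Foxo4 being added, and 1 in place of 0 passed for the interaction, Foxo1, which also passed without a floor (1). With dim genes tested, 11 genes in all and 0 members in place of 1 were higher in mutant tissue and 1 in place of 3 lower in culture, and the 1 member lower in mutant tissue was then Foxd3, at the floor in both mutant arrays, and not Foxo1. In that run 1 passed upwards (Foxd3) and 1 downwards (Foxa1) for the interaction, both with values at the floor, and 3 members were at least 2-fold higher and 7 at least 2-fold lower in mutant culture, since 35 members were then counted. Without an intensity trend 0 members were higher and 0 lower in mutant tissue, where over all genes 0 were higher and 2 lower. That choice gave 4 members in place of 3 lower in culture, Foxo4 being added. With probe sets averaged, which left 9 members above the filter, 0 were higher and 0 lower in mutant tissue, 0 lower in culture, where Foxq1 fell under the filter, and 1, Foxl2, at least 2-fold lower in mutant culture. The cause of these changes was not tested. The deposited scaling moved the median of all genes by at most 0.04, and it turned the sign of 1 member, Foxo3, for culture against tissue and of 1, Foxq1, for the interaction. When 1 mutant tissue array was left out at a time, the counts of members across both preparations (0 and 0) and for culture against tissue (1 and 3) were as reported, and the Foxo1 tissue difference was −1.77 or −1.34 with no test. The tissue and interaction tests could not be run without a mutant array, for want of residual degrees of freedom. No paired analysis was possible because the labels give no pairing of arrays and only mutant tissue has more than 1 array.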

Other observations

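Of the motile cilia genes, 17 were too dim on average to test, and they are given here as levels, chosen for mention after their values were seen. In 7 of the 17 both cultures lay above every tissue array: Rsph1, Rsph4a, Dnah9, Spag6l, Ccno, Rfx2 and Cfap52. Among all genes tested 29.6% lay above and 29.2% below in this way, shares that cover brighter genes only. Some margins were slight: Cfap52 read 4.44 in WT culture and in the nearest tissue array, and Rfx2 read 4.30 against 4.27. Rsph1, a radial spoke protein, read 6.21 and 6.41 in mutant and WT culture against 2.70, 4.24 and 2.36 in mutant and WT tissue. Dnah9, an axonemal dynein heavy chain, read 5.32 and 4.95 in mutant and WT culture against 4.73, 4.48 and 2.36 in mutant and WT tissue. In 2 of the 17, Tekt2 and Dnaic1, both cultures lay below every tissue array, and the other 8 overlapped. Tekt2, a ciliary microtubule protein, read 2.78 and 2.36 in mutant and WT culture against 5.55, 5.40 and 4.74 in mutant and WT tissue.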
